A study of Mus musculus with 2 samples.

Results

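The 9 genes described here encode parts of the machinery by which injured cells die in a regulated way: Ripk1, Ripk3 and Mlkl of necroptosis, Casp1, Gsdmd and Nlrp3 of pyroptosis, Casp8 of apoptosis, and Aifm1 and Mif of parthanatos, the death that follows overactivation of PARP-1. They were taken by symbol from the 32285 genes counted in each library, and their UMIs (unique molecular identifiers, 1 per captured RNA molecule) were summed over the cells of each marker-defined cell class in each library. Kidneys of male C57BL/6 mice aged 9 weeks were studied 24 h after bilateral ischemia-reperfusion injury (IRI). The treated mouse received the PARP-1 inhibitor JPI-289 at 100 mg/kg into the peritoneal cavity just before reperfusion and the control mouse received saline by the same route, so that both carried the injury and neither library came from an uninjured kidney. Each group was 1 library of dissociated cells, made with a kit that reads transcripts from the 5′ end. No test between the groups was therefore possible. Every interval given below is an exact 95% interval that covers counting error only, and the difference between any 2 mice is not part of it.

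In necroptosis, the kinases RIPK1 and RIPK3 assemble when caspase-8 is not active, and RIPK3 then phosphorylates MLKL, which breaks the plasma membrane. In pyroptosis, the NLRP3 inflammasome activates caspase-1, which cleaves gasdermin D into a pore-forming fragment and matures interleukin-1β. In parthanatos, PAR polymer made by PARP-1 releases AIF, the product of Aifm1, from mitochondria, and AIF carries the nuclease MIF to the nucleus. AIF also has a housekeeping role in assembling the respiratory chain, and MIF is secreted as a cytokine as well. Tubular epithelium after ischemia is a standard setting for necroptosis, and inflammasome genes are best known from myeloid cells.

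The libraries held 38328760 UMIs (control) and 35548396 UMIs (JPI-289), of which 16673370 and 17842002 lay in the 3718 and 5010 cells kept, at medians of 2077 and 1874.5 UMIs per cell. The 7 classes compared were proximal tubule (PT, 1760 control and 1627 JPI-289 cells), loop of Henle and distal tubule (504 and 650), collecting duct (126 and 444), endothelial cells (EC, 503 and 569), stroma (157 and 101), macrophages and monocytes (198 and 299) and neutrophils (196 and 653). All 15 PT markers, all 10 EC markers, all 12 stromal markers and all 8 neutrophil markers were detected in their own class in both libraries. The classes were named from these lists, so this detection is not separate support for the names. Nor was it particular to a class, since all 10 EC markers also had UMIs in PT in both libraries. The PT cells of the 2 libraries fell into separate clusters: clusters 1, 8, 14 and 18 were almost wholly control cells and clusters 0, 9 and 10 almost wholly JPI-289 cells. The summed level of the 8 injured-PT markers in PT was 9087 CPM (UMIs per 1000000 UMIs of the class) in the control library and 19735 CPM with JPI-289. This sum was not particular to PT. It was 71371 and 72736 CPM in the loop of Henle and distal tubule and 30030 and 35207 in collecting duct. It was also higher with JPI-289 in EC (3332 and 8830), stroma (2304 and 5697) and red blood cells (2503 and 7409). In macrophages and monocytes (3928 and 3645) and neutrophils (9840 and 9754) it was not. Collecting duct cells differed in depth, with a median of 6613 UMIs in the control library against 1557.5 with JPI-289. The libraries shared 23 cell barcodes, which were 0.619% and 0.459% of their cells.

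RefSeq promoter windows of GRCm38.p6, from 250 bases before to 50 bases after a transcript start, were held for 8 of the 9 genes. Those of 4 members are shown as examples of broad and narrow expression. Ripk1, Ripk3, Mif, Casp8 and Aifm1 had UMIs in all 7 classes in both libraries, Ripk3 and Aifm1 as few as 1 in some. Ripk1 and Mif are shown from among them, while Casp1 and Nlrp3 were almost limited to myeloid cells. The window of Mlkl is added because Mlkl was past 2-fold in opposite directions in PT and EC. All are written 5′ to 3′ on the gene's own strand, and capitals mark each CG dinucleotide.
Ripk1 (chr13:34002113-34002412, plus strand): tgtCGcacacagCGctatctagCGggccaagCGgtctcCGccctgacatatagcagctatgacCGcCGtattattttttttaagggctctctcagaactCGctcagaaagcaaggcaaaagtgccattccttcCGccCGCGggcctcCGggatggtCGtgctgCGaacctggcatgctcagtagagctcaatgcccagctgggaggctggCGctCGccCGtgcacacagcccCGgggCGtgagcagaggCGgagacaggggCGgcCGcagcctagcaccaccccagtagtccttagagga
Mif (chr10:75860228-75860527, minus strand): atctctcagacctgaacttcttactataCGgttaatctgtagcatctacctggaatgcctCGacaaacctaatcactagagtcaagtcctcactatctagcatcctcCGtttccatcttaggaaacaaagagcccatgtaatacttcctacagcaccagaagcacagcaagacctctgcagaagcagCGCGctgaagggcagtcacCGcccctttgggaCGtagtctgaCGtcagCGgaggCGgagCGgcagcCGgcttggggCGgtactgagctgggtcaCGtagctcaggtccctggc
Mlkl (chr8:111338156-111338455, minus strand): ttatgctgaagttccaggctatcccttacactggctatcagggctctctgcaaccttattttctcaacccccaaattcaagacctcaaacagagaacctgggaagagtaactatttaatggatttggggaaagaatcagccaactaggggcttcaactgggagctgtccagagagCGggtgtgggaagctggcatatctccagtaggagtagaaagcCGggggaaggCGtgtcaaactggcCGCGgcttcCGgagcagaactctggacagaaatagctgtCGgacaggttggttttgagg
Nlrp3 (chr11:59541319-59541618, plus strand): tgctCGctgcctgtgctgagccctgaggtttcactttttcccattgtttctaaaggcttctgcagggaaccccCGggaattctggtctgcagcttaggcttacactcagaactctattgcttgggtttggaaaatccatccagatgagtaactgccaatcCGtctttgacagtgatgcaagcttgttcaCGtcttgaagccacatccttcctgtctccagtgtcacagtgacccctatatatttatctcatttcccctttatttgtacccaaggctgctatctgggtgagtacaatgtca
Casp1 (chr9:5298267-5298566, plus strand): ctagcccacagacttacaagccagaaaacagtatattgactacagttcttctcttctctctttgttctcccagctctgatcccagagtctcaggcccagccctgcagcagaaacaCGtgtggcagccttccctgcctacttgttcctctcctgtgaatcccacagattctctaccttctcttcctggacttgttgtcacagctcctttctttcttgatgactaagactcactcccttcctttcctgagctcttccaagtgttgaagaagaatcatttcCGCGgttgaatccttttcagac
The Ripk1 window held 22 CG dinucleotides and the Mif window 14, against a median of 7 over all 32851 windows of 27025 genes. The Mlkl window held 7, the Nlrp3 window 4 and the Casp1 window 3. A second Nlrp3 window, chr11:59542436-59542735, held 5 and had the letters TGACG 1 time. An alternative Ripk1 start, with the window chr13:34002624-34002923, had 36, a number reached by 6.23% of windows, and the Aifm1 window had 21. The Ripk3 window held 10. The window held for Casp8, another gene found in all 7 classes, was chr1:58802252-58802551. It lies inside the gene, downstream of the annotated gene start at 58795374. This window held 5, below the median, and the CG count at the gene start was not read. Whether the CG count follows the number of classes across these members cannot be told from these windows. The GC box GGGCGG, searched on both strands, occurred 2 times in the Mif window and 3 times in the printed Ripk1 window and in 35.7% of all windows. The letters TGACG, also searched on both strands, were counted 2 times in the Mif window and occurred in 20.8% of all windows. The 2 counts are the 2 strands of 1 site, TGACGTCA. The letters GAGGAAGT, a PU.1-type word, were found in no member's window and in 3.20% of all windows. These counts describe the letters of the windows and say nothing about which factor binds there.

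Across the 7 classes, the 9 members gave 63 pairs of gene and class, and 40 of these had at least 20 UMIs over both libraries. The level with JPI-289 was above the control level in 8 of the 40 and below it in 32. Several of these signs, all of pairs short of 2-fold, changed under other settings, given below. At least a 2-fold difference was found upward in 1 pair, Mlkl in PT, and downward in 10. Pairs with fewer UMIs are given by their counts alone. Because a pair with most of its UMIs in 1 library could pass this minimum through that library, these counts are a description only. The background was itself tilted downward: of all genes with at least 20 UMIs, the share at least 2-fold higher and the share at least 2-fold lower with JPI-289 were 9.12% and 23.8% in PT, 6.67% and 11.9% in the loop of Henle and distal tubule, 7.50% and 14.2% in collecting duct, 5.10% and 18.6% in EC, 11.5% and 13.9% in stroma, 8.93% and 15.6% in macrophages and monocytes, and 11.5% and 10.4% in neutrophils. The members' median log2 ratio (JPI-289 over control, of CPM of the class) was below that of all genes in 6 of 7 classes. It was -0.96 in EC, where the median of all genes was -0.18, -1.03 in stroma (all genes 0.0020) and -0.87 in neutrophils (all genes 0.11). PT was the exception, at 0.18 for 5 measured members against -0.19 for all genes.

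**Figure D1:**
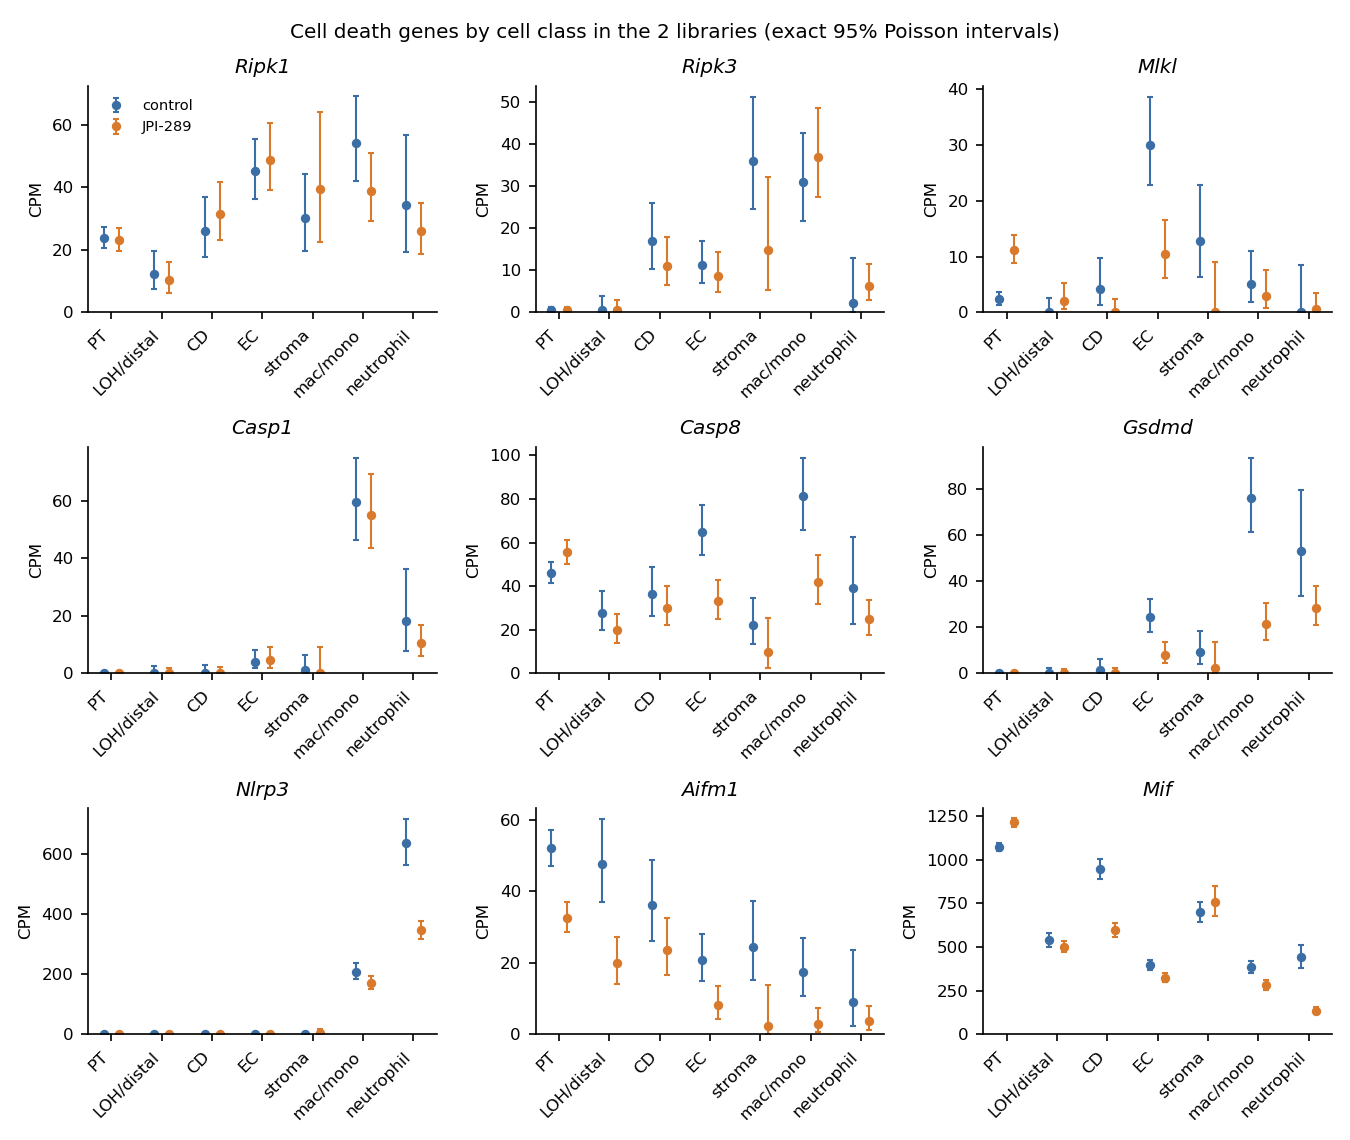
Level of each of the 9 genes (vertical axis, CPM of the class, linear and starting at 0, with its own range for each gene) in 7 cell classes (horizontal axis) in the control (blue) and JPI-289 (orange) libraries; points are the 2 libraries and bars are exact 95% Poisson intervals. Nlrp3 and Casp1 stand near 0 outside the macrophage and monocyte and neutrophil classes, Ripk1, Casp8 and Mif are present in all 7, and Mlkl is higher in PT and lower in EC with JPI-289.

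Mlkl encodes the executioner of necroptosis and lies at chromosome 8, 111311797 to 111338177, on the minus strand of GRCm38. In PT it had 19 UMIs in the control library and 81 with JPI-289, or 2.35 CPM (1.42 to 3.67) and 11.1 CPM (8.81 to 13.8). The level with JPI-289 was thus well above the control level, with a log2 ratio of 2.21 (1.503 to 3.04), and the 2 intervals did not overlap. The UMIs came from 19 of 1760 control cells and 53 of 1627 JPI-289 cells, and no cell held more than 1 UMI in the control library or more than 6 with JPI-289. Red blood cells, which should lack the RNA, had a Mlkl UMI in 0 of 76 and 1 of 123 cells at medians of 1519.5 and 1531 UMIs, against 2318 and 1866 in PT. After thinning to 1000 UMIs, 3 of 1326 and 6 of 1132 PT cells kept a UMI, too few to order the libraries by the share of cells.

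Within PT, Mlkl was uneven among clusters. Cluster 10, led by Kap and Miox, carried 51 of the 81 UMIs of the JPI-289 library at 23.1 CPM (17.2 to 30.3), while cluster 9, led by the fibrinogen genes Fgg, Fgb and Fga, stood at 3.88 CPM (1.94 to 6.95) and cluster 0, led by Plin2, at 8.44 CPM (5.08 to 13.2). The control clusters lay between 0 UMIs in cluster 14 and 4.69 CPM (2.02 to 9.24) in cluster 18, which was also led by Kap. The interval of cluster 9 overlapped those of all 4 control clusters and that of cluster 0 overlapped clusters 1 and 18, whereas cluster 10 was above every control cluster without overlap. EC markers, summed, were at 52.5 CPM in control PT and 17.7 CPM in JPI-289 PT, and the part of EC RNA in the PT Mlkl values was not tested. With each cell thinned to 1000 UMIs the PT log2 ratio was 1.12.

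In EC the order was the opposite. Mlkl had 59 UMIs in 503 control cells and 18 UMIs in 569 JPI-289 cells, or 29.9 against 10.5 CPM, a log2 ratio of -1.49 (-2.36 to -0.73). In cluster 6, the largest EC cluster shared by both libraries, the levels were 37.2 CPM (24.9 to 53.4) and 10.0 CPM (5.61 to 16.5). In cluster 7, the other shared cluster, they were 25.3 (10.2 to 52.1) and 14.2 (2.92 to 41.4) CPM, which overlapped. Cluster 17, almost wholly control cells, stood at 25.1 CPM (15.9 to 37.7). The lower EC level with JPI-289 was thus also found inside a cluster present in both libraries. EC with a Mlkl UMI made up 10.1% of control and 2.99% of JPI-289 cells, and 2.48% (1.14 to 4.65) and 1.07% (0.292 to 2.72) after thinning.

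In the other classes compared, Mlkl had few UMIs. The unnamed cells, which were not compared, held 33 UMIs in the control library and 15 with JPI-289. These were 25.1 CPM (17.3 to 35.3) and 10.2 CPM (5.73 to 16.9). Stroma held 11 UMIs in the control library and 0 of 406177 with JPI-289. The Poisson intervals, 6.38 to 22.9 CPM and 0 to 9.08 CPM, overlapped, which does not show that the levels were equal. There were 5 and 0 in collecting duct, 6 and 4 in macrophages and monocytes, 0 and 4 in loop of Henle and distal tubule, and 0 and 1 in neutrophils. Over all kept cells the log2 ratio was -0.20 (-0.56 to 0.17), and over all barcodes, which include RNA outside the kept cells, it was 0.34 (0.072 to 0.62). The kept-cell interval thus included 0, while the all-barcode interval lay above 0. Neither value showed the opposite differences of PT and EC. In such sums, fewer cells of a class and less RNA per cell cannot be told apart.

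**Figure D2:**
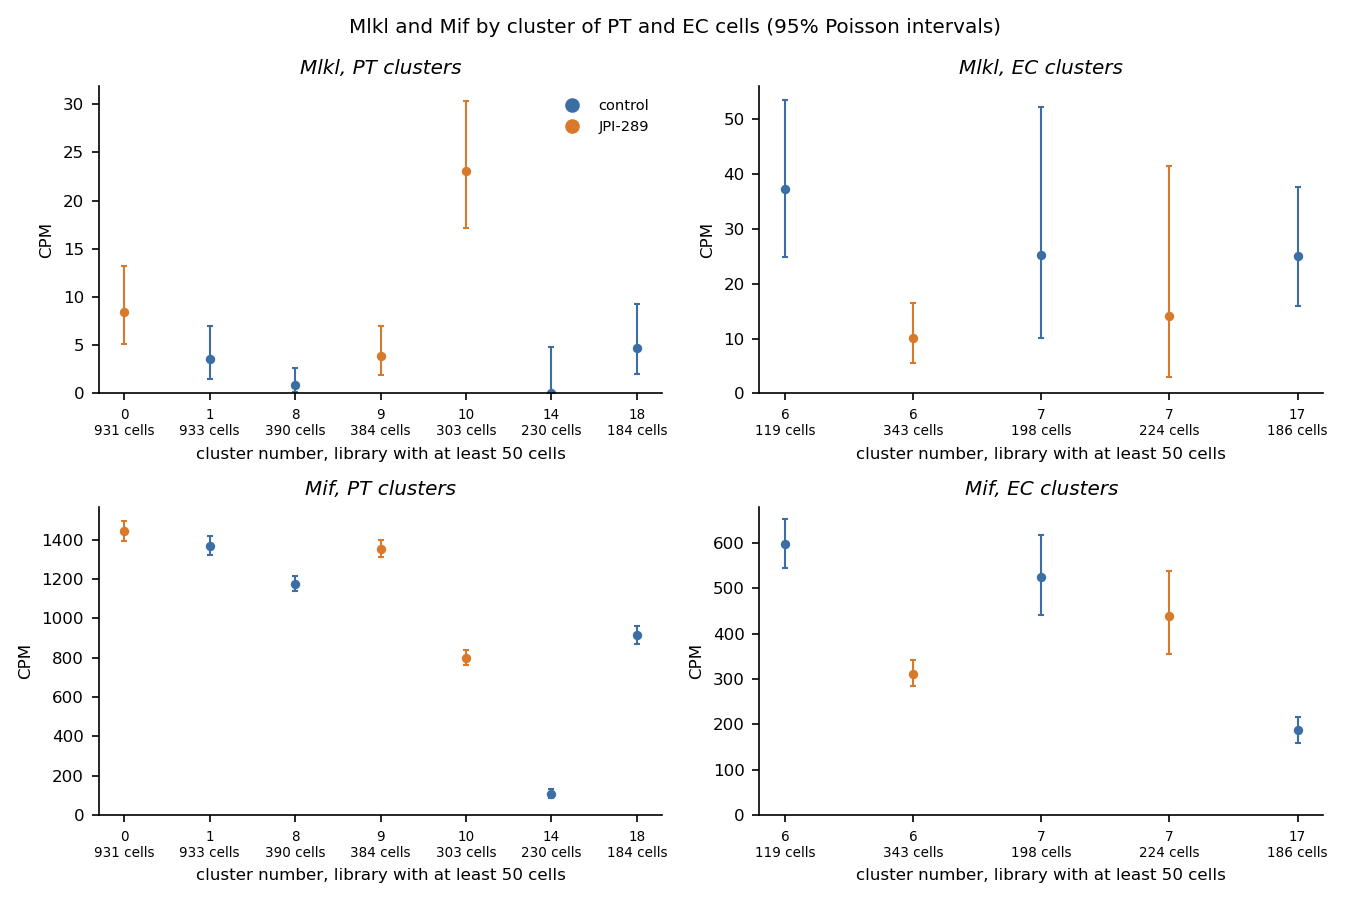
Mlkl (top) and Mif (bottom) in each cluster of PT (left) and EC (right) with at least 50 cells of a library; the vertical axes are CPM, linear from 0, with the control library in blue, JPI-289 in orange and exact 95% Poisson intervals as bars. Mlkl is highest among PT clusters in JPI-289 cluster 10, at 23.1 CPM, and within EC cluster 6 it is 37.2 in control and 10.0 in JPI-289 cells, while control PT cluster 14 stands apart for Mif at 108 CPM.

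Ripk3, which encodes the kinase that activates MLKL (chromosome 14, 55784995 to 55788865, minus strand), was close to absent from the tubule segments with most cells. PT had 4 UMIs in each library, or 0.495 and 0.548 CPM, and loop of Henle and distal tubule had 1 in each. The PT cells in which Mlkl was higher were thus nearly without Ripk3 UMIs in both libraries. The highest control level was in stroma, at 36.0 CPM from 31 UMIs, against 14.8 CPM from 6 UMIs with JPI-289, a log2 ratio of -1.19 whose interval (-2.84 to -0.0030) only just excluded 0. It was -0.52 when thinned to 1000 UMIs and -2.82 with each cell given equal weight. Macrophages and monocytes had 30.9 and 36.8 CPM, a log2 ratio of 0.25 (-0.39 to 0.90), which was -0.95 when thinned. Their intervals overlapped those of stroma in both libraries, so no order between these classes is given. Within the class, the C1q-led cluster had 20.6 and 29.0 CPM and the monocyte-led cluster 39.2 and 41.6. Collecting duct had 16.8 and 11.1 CPM. All 17 of its JPI-289 UMIs lay in principal cells, which were 383 of the 444 cells. In the control library, intercalated cells held 2 of the 20 UMIs. EC had 11.2 and 8.73 CPM, a log2 ratio of -0.34 that was -1.63 when thinned, and neutrophils had 1 and 10 UMIs. In stroma the 8 monocyte markers summed to 491 and 320 CPM and the 9 macrophage markers to 41.8 and 64.0, and their part in the stromal Ripk3 values was not tested.

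Ripk1, which encodes the kinase at the branch point of survival, apoptosis and necroptosis (chromosome 13, 34002363 to 34037147, plus strand), was found in every class compared. Its level ran from 12.4 and 10.4 CPM in the loop of Henle and distal tubule to 54.3 CPM in control macrophages and monocytes and 48.9 CPM in JPI-289 EC. PT had 192 and 169 UMIs, or 23.8 and 23.1 CPM, with a log2 ratio of -0.038 (-0.34 to 0.27). These near-equal class values combined unequal clusters, given below. Log2 ratios in the 7 classes ranged from -0.48 in macrophages and monocytes to 0.40 in stroma, 3 above and 4 below 0, and all 7 intervals included 0. Several signs changed with the setting: collecting duct (0.26) was -0.93 with equal weight of each cell and -0.51 when thinned, stroma (0.40) was 1.34 and -0.52, EC (0.12) was -0.19 with the first step of cell calling alone, and loop of Henle and distal tubule (-0.25) was 2.65 when thinned. The thinned value of loop of Henle and distal tubule rests on few counts, with a Ripk1 UMI kept in 0 of 301 control and 4 of 432 JPI-289 cells. In neutrophils the ratio of -0.44 was -1.33 when thinned. No direction is therefore given for Ripk1 in these classes. Among PT clusters, cluster 14, a control cluster led by the nuclear-retained RNAs Neat1 and Malat1 beside transporter genes, had 83.5 CPM (64.3 to 107), above every other PT cluster, where levels were between 8.79 and 25.8. Its 230 cells held 64 of the 192 control PT UMIs. Without cluster 14, which was left out after its values were seen, control PT had 17.5 CPM and the log2 ratio was 0.40 (0.063 to 0.75). Cluster 12 was also led by Neat1 and held 255 cells of the JPI-289 library and 12 of the other. Its JPI-289 cells had Ripk1 at 117 CPM (94.4 to 143) and Mif at 134 CPM (110 to 162), with intervals that overlapped those of cluster 14. It did not meet the marker rule for PT and was left unnamed, so the PT class held a Neat1-led cluster in the control library and none with JPI-289. Ripk1 overlaps Serpinb6a on the opposite strand, and the strand setting of the counting was not given in the sources used here.

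Casp8 encodes the initiator caspase of death receptors, which also cleaves RIPK1 and RIPK3 (chromosome 1, 58795374 to 58847503, plus strand). It was lower with JPI-289 in 6 of 7 classes and higher in PT. In PT it had 373 and 406 UMIs, or 46.2 and 55.6 CPM, with a log2 ratio of 0.27 (0.062 to 0.47). With equal weight of each cell this ratio was 0.034, below that interval. Cluster 10, the one with most Mlkl, again had the highest level at 81.9 CPM (70.4 to 94.8), and its interval overlapped that of the highest control cluster, cluster 1, at 63.1 CPM (53.1 to 74.3). In EC the level was 64.9 against 33.2 CPM, a log2 ratio of -0.96 (-1.44 to -0.51). Macrophages and monocytes had 81.1 and 41.9 CPM, a log2 ratio of -0.95 (-1.45 to -0.47), and the lower level was found in both the C1q-led cluster (84.4 and 36.8) and the monocyte-led cluster (78.4 and 45.1). These 2 differences fell just short of 2-fold, and the stromal one, 19 against 4 UMIs with a log2 ratio of -1.03 (-3.18 to 0.43), passed it on few counts and was -0.15 when thinned. The ratio of macrophages and monocytes was -2.09 when thinned. The remaining ratios, -0.48 in the loop of Henle and distal tubule, -0.27 in collecting duct and -0.68 in neutrophils, had intervals that included 0. The first was 0.0078 and the second 0.072 with equal weight of each cell, the second was -1.09 when thinned, and the neutrophil ratio was 0.52 with the first step of cell calling alone.

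**Figure D3:**
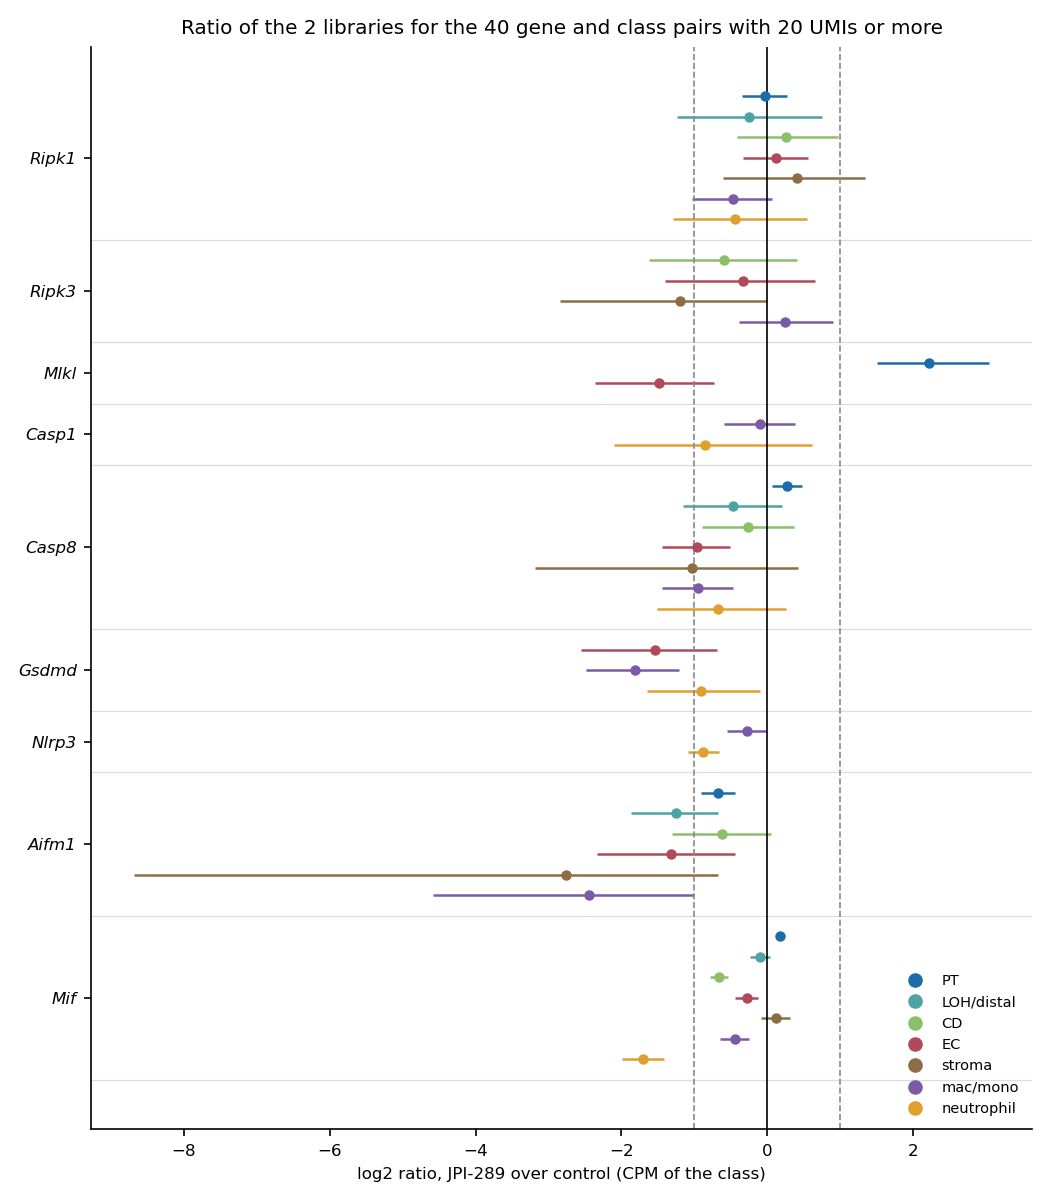
Log2 ratio of the JPI-289 over the control library (horizontal axis) for the 40 gene and class pairs with at least 20 UMIs, grouped by gene (vertical axis) and coloured by cell class; bars are exact 95% binomial intervals and dashed lines mark a 2-fold difference. Mlkl in PT is the only point beyond the upper line, 10 points lie beyond the lower line, and all 6 points of Aifm1 and all 3 of Gsdmd are below 0.

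Nlrp3, the sensor of the inflammasome (chromosome 11, 59541568 to 59566956, plus strand), was almost limited to myeloid cells. Macrophages, monocytes and neutrophils together held 98.5% of its 536 UMIs in control cells and 98.6% of its 806 UMIs in JPI-289 cells, while they were 10.6% and 19.0% of the cells. The other 5 classes held between 0 and 4 UMIs in each library, and red blood cells held 0 in both. The level in neutrophils was 639 CPM (566 to 719) in the control library and 348 CPM (320 to 378) with JPI-289, a log2 ratio of -0.88 (-1.09 to -0.67). A Nlrp3 UMI was found in 58.7% of control and 39.4% of JPI-289 neutrophils, and in 42.4% (35.0 to 50.01) and 26.3% (22.8 to 30.1) after thinning to 1000 UMIs, which left out 19 and 71 cells. Red blood cells with a UMI after thinning were 0 of 56 and 0 of 93, which allows a share of up to 5.36% and 3.23%.

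In macrophages and monocytes, Nlrp3 was at 209 and 171 CPM, a log2 ratio of -0.29 (-0.55 to -0.023). The 2 clusters of the class went opposite ways: the monocyte-led cluster had 207 and 126 CPM, a log2 ratio of -0.71, and the C1q-led cluster 212 and 246, a log2 ratio of 0.21 (-0.16 to 0.59). Over all kept cells the order was the reverse of that in neutrophils, with 32.1 CPM in control and 45.2 CPM in JPI-289 cells, a log2 ratio of 0.49 (0.33 to 0.65). Over all barcodes, kept or not, the log2 ratio was 0.69 (0.54 to 0.84). Neutrophils were 5.27% of kept cells in the control library and 13.03% with JPI-289. The sign of the Nlrp3 difference thus depended on whether it was read per class or over the library.

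**Figure D4:**
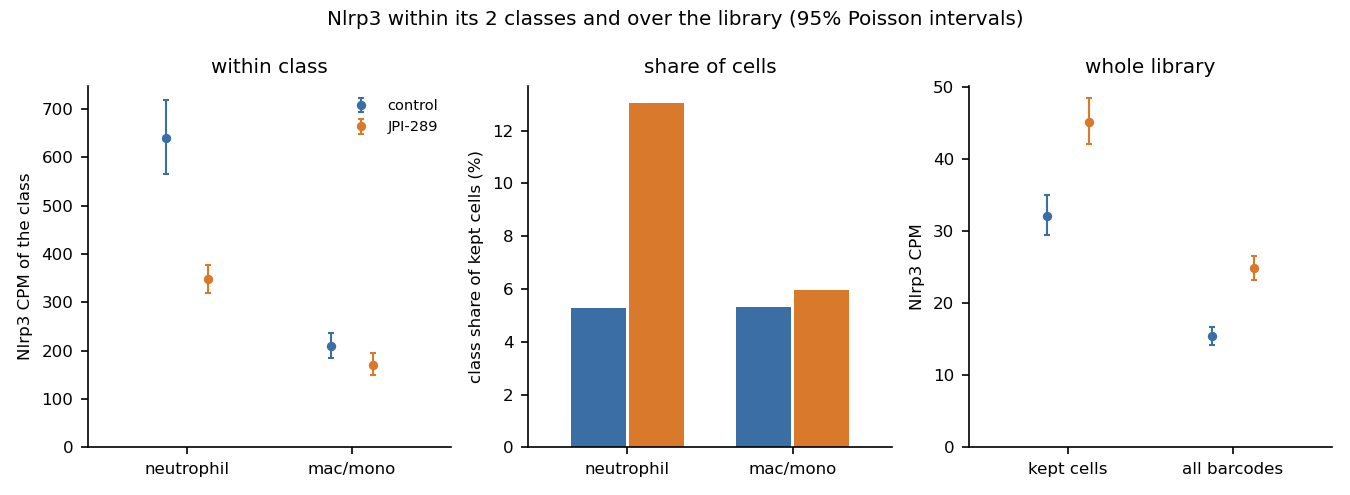
Nlrp3 in CPM of the class in neutrophils and in macrophages and monocytes (left), the share of kept cells in these classes in percent (middle), and Nlrp3 in CPM over all kept cells and all barcodes (right), for the control (blue) and JPI-289 (orange) libraries; all axes are linear from 0 and bars on points are exact 95% Poisson intervals. The level is lower with JPI-289 inside each class (639 and 348 in neutrophils) and higher over the kept cells (32.1 and 45.2), where neutrophils were 5.27% and 13.03% of cells.

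Casp1, the protease that NLRP3 activates (chromosome 9, 5298517 to 5307265, plus strand), had 0 UMIs in PT, in the loop of Henle and distal tubule and in collecting duct in both libraries. In PT, with 8077810 and 7301259 UMIs counted, this allows at most 0.371 and 0.411 CPM. Of its 89 UMIs in control cells and 104 in JPI-289 cells, 88.8% and 88.5% were in macrophages, monocytes and neutrophils. Macrophages and monocytes had 71 and 75 UMIs, or 59.4 and 55.2 CPM, a log2 ratio of -0.11 (-0.59 to 0.38). Neutrophils had 8 and 17 UMIs, or 18.4 and 10.5 CPM, a log2 ratio of -0.85 (-2.10 to 0.61). EC had 8 in each library, and stroma had 1 and 0. The myeloid class with the highest Nlrp3 level, neutrophils, was therefore not the class with the highest Casp1 level in either library. No difference between the libraries was detectable for Casp1 at this depth.

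Gsdmd encodes gasdermin D, the pore-former cleaved by caspase-1 (chromosome 15, 75862327 to 75867408, plus strand). In macrophages and monocytes it had 91 UMIs in 198 control cells and 29 UMIs in 299 JPI-289 cells, or 76.1 and 21.3 CPM, a log2 ratio of -1.82 (-2.49 to -1.22). Both clusters of the class showed the lower level: the monocyte-led cluster had 89.0 and 19.0 CPM, a log2 ratio of -2.20, and the C1q-led cluster 60.0 and 25.1, a log2 ratio of -1.22. Casp1, upstream of Gsdmd, differed little in the same cells. Cells of the class with a Gsdmd UMI were 34.3% and 9.03%, and 9.20% (5.24 to 14.7) and 2.25% (0.829 to 4.83) after thinning, while red blood cells had none. In neutrophils the level was 52.9 against 28.5 CPM, a log2 ratio of -0.91 (-1.65 to -0.10). The macrophage marker genes of the class were themselves lower with JPI-289, at 16457 and 6547 CPM summed over 9 genes, and the 8 monocyte markers were at 11614 and 4183. Whether these moved with Gsdmd for a shared reason was not tested.

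Gsdmd was also lower in EC, with 48 and 14 UMIs, or 24.3 and 8.15 CPM, a log2 ratio of -1.54 (-2.55 to -0.69). With each cell thinned to 1000 UMIs it was -0.70, short of 2-fold. Cluster 17, almost wholly control cells, had 28.4 CPM, and cluster 6, present in both libraries, had 23.1 (13.7 to 36.5) and 9.35 (5.11 to 15.7). Myeloid markers in EC were lower with JPI-289, as Gsdmd was. The 8 neutrophil markers summed to 263 and 134 CPM, the 9 macrophage markers to 110 and 93.1 and the 8 monocyte markers to 150 and 58.2, and Nlrp3 had 2 and 1 UMIs in the class. Their part in the EC Gsdmd values was not tested. Tubular classes were nearly without Gsdmd, with 3 and 0 UMIs in PT, 0 and 0 in the loop of Henle and distal tubule and 2 and 0 in collecting duct. Stroma had 8 and 1 UMIs. Over all kept cells the log2 ratio was -1.08 (-1.46 to -0.71), and myeloid cells held 62.6% of its UMIs in the control library and 81.5% with JPI-289. Gsdmd was thus lower in the library that had more neutrophils.

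Aifm1, which encodes the mitochondrial flavoprotein AIF (chromosome X, 48474944 to 48513563, minus strand), was lower with JPI-289 in all 6 classes with at least 20 UMIs. PT had 420 and 238 UMIs, or 52.0 and 32.6 CPM, a log2 ratio of -0.67 (-0.91 to -0.44). Every JPI-289 PT cluster, at 28.6 to 41.6 CPM, was below every control PT cluster, at 43.1 to 55.5, although the interval of JPI-289 cluster 10 overlapped all 4 control intervals and that of control cluster 14 overlapped all 3 JPI-289 intervals. The ratio was past 2-fold in 4 classes. The loop of Henle and distal tubule had 47.6 and 19.8 CPM, a log2 ratio of -1.25 (-1.87 to -0.67), and its distal convoluted and connecting tubule cells (56.9 and 17.4) and thick ascending limb cells (41.4 and 21.2) both had the lower level. With equal weight of each cell the ratio was -0.99, just short of 2-fold. EC had 20.8 and 8.15 CPM, a log2 ratio of -1.32 (-2.34 to -0.44). Macrophages and monocytes had 21 and 4 UMIs and stroma 21 and 1, with log2 ratios of -2.44 (-4.58 to -1.01) and -2.76 (-8.68 to -0.67) that rest on few counts. The first was -1.20 when thinned and the second -3.79 with equal weight of each cell. Collecting duct had 36.2 and 23.5 CPM, a log2 ratio of -0.62 (-1.30 to 0.052), and neutrophils only 4 and 6 UMIs.

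The lower Aifm1 level was not limited to the kept cells. Over all barcodes its UMIs numbered 1714 in the control library and 763 with JPI-289, a log2 ratio of -1.06 (-1.18 to -0.94). In barcodes with fewer than 100 UMIs taken as free RNA it was at 59.0 and 23.3 CPM, values that rest on only 26 and 8 UMIs. In PT, where 23.8% of all genes were at least 2-fold lower, Aifm1 was not among them. Genes whose pattern over 18 class and library points was most like that of Aifm1 were Suclg2 (Pearson r 0.911), Clybl (0.902) and Mrpl14 (0.902), of which Suclg2 encodes a subunit of succinyl-CoA ligase and Mrpl14 a mitochondrial ribosomal protein.

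Mif, which encodes macrophage migration inhibitory factor (chromosome 10, 75859353 to 75860240, minus strand), had the most UMIs of the 9 genes. PT held 8681 of its 13574 UMIs in control cells and 8867 of 12924 with JPI-289, or 1075 and 1214 CPM, a log2 ratio of 0.18 (0.13 to 0.22), or 0.046 (0.0035 to 0.089) without cluster 14. This narrow interval covers counting error only, and PT clusters within a library differed by far more: from 108 CPM (86.3 to 134) in control cluster 14 to 1369 (1321 to 1418) in control cluster 1, and from 800 in JPI-289 cluster 10 to 1443 in cluster 0. The class with the largest difference was the neutrophils, with 193 UMIs in 196 control cells and 220 UMIs in 653 JPI-289 cells, or 444 and 136 CPM, a log2 ratio of -1.71 (-1.99 to -1.42). In the same cells the 15 PT markers summed to 4734 and 2519 CPM and the 8 monocyte markers to 5540 and 1538, while the 8 neutrophil markers were at 132224 and 124013, and the part of PT or monocyte RNA in the neutrophil Mif values was not tested. In barcodes with fewer than 100 UMIs, taken as free RNA, Mif was at 628 and 500 CPM, above its level in neutrophils in both libraries.

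In collecting duct, Mif was at 945 and 596 CPM, a log2 ratio of -0.66 (-0.79 to -0.54). The ratio was -0.25 with equal weight of each cell. The difference in CPM was carried by principal cells, with 977 and 570. Intercalated cells had 789 and 786, a log2 ratio of -0.0035 (-0.34 to 0.33). EC had 396 and 326 CPM, a log2 ratio of -0.28 (-0.44 to -0.12) that was -0.018 when thinned. EC clusters ranged from 187 in control cluster 17 to 596 in the control cells of cluster 6, whose JPI-289 cells had 311. Macrophages and monocytes had 386 and 284 CPM, a log2 ratio of -0.44 (-0.64 to -0.25) that was 0.025 when thinned. In stroma (699 and 758) and in the loop of Henle and distal tubule (539 and 502) the intervals of the ratio included 0, and the stromal ratio of 0.12 was -0.48 with equal weight. The 2 Mif pseudogene copies of the annotation were not among the genes counted in the files, so how reads shared with them were assigned is not known.

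The shape of each member's pattern over the 18 class and library points with at least 50 cells was compared with that of 10212 genes, as a description in which points share libraries and depth. Nlrp3 was followed most closely by Igsf6 (r 0.997), Tlr13 (0.995) and Arl11 (0.995), and Gsdmd by Tm6sf1 (0.976), Gng2 (0.975) and Bst1 (0.961). For Mlkl the nearest genes were Myct1 (0.837), Bvht (0.837) and Thrsp (0.834), for Ripk3 Pla2g4a (0.886), Mmp14 (0.866) and Lrp1 (0.863), for Ripk1 Tmem168 (0.914), Gpr107 (0.905) and Tial1 (0.901), for Casp8 Umps (0.872), Mrpl43 (0.867) and Snapc5 (0.857), and for Mif Elmod3 (0.915), Bloc1s1 (0.903) and Rhbdd2 (0.891). Casp1, with 193 UMIs, was under the minimum of 200. Among the members, the pyroptosis genes went together by class, with r of 0.85 for Gsdmd and Nlrp3 and 0.83 for Casp1 and Gsdmd. Any r with Casp1 rests on fewer UMIs than that minimum. The necroptosis genes did so far less, with r of 0.34 for Ripk3 and Mlkl and 0.28 for Ripk1 and Ripk3. Ripk3 had a higher r with Casp1 (0.53) and Gsdmd (0.49) than with Mlkl, so r did not sort by pathway alone.

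The partners of the 9 genes were read from 5 pathway lists. Of the 21 genes that control death receptors and necroptosis, 20 were measured in PT, 7 above and 13 below the control level. The median log2 ratio was -0.12 (all genes -0.19). Past 2-fold were 2 higher and 4 lower, near the shares of all PT genes, 9.12% and 23.8%. Otulin, which encodes the deubiquitinase of linear ubiquitin chains that restrains death at the TNF receptor, was higher in 7 of 7 classes, from 34.0 to 102 CPM in PT (log2 ratio 1.58) and from 11.5 to 52.6 in neutrophils (2.06). Ticam1, which encodes the adaptor TRIF, another route to RIPK3, was lower by at least 2-fold in all 5 classes measured, with 15.5 and 4.93 CPM in PT (-1.64). Birc2, which encodes the ubiquitin ligase cIAP1, went opposite ways, at -1.14 in PT and 1.53 in macrophages and monocytes. Cflar, which encodes the caspase-8 inhibitor FLIP, stayed between -0.13 and 0.54 in 7 classes. Tnfrsf1a, the TNF receptor, had log2 ratios of 0.56 in PT and -0.60 in EC. The list median was below that of all genes in 2 of 7 classes, and in 0 to 4 under other settings.

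The inflammasome list of 17 genes had 9 measured in PT and 16 in macrophages and monocytes. Pycard, which encodes the adaptor ASC that links NLRP3 to caspase-1, was lower in 7 of 7 classes and past 2-fold in 4. It was at 111 and 16.7 CPM in the loop of Henle and distal tubule (log2 ratio -2.72) and 164 and 39.2 in collecting duct (-2.06). Casp1 had 0 UMIs in these 2 classes. The smallest Pycard difference, -0.19, was in neutrophils, the class with the highest Nlrp3 level. Txnip, whose product binds thioredoxin and NLRP3, was higher in 7 of 7, most in EC with 543 and 2751 CPM (2.34). Il1b, the cytokine that caspase-1 matures, was at 2268 and 1271 CPM in macrophages and monocytes (-0.83) and 8784 and 5972 in neutrophils (-0.56). In these 2 classes Il1b and Nlrp3 were thus both lower with JPI-289. Il18 (-2.13) and Naip2 (-1.74) were lower and Aim2 (0.88) higher in macrophages and monocytes, Casp4 was lower in neutrophils (-1.64), and Ninj1, which encodes the mediator of the final membrane rupture, was at 464 and 306 CPM in macrophages and monocytes (-0.60) and 389 and 643 in neutrophils (0.72). The list median was below that of all genes in 3 of 7 classes, and in the loop of Henle and distal tubule it was at 0.69 against -0.071.

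The BCL2 family, which sets the threshold of mitochondrial apoptosis, had 12 of 16 genes measured in PT, 7 above and 5 below the control level. Past 2-fold were 3 higher and 0 lower, where the shares of all PT genes were 9.12% and 23.8%. The median log2 ratio was 0.32 (all genes -0.19). Bcl2l1, which encodes the survival protein BCL-XL, was at least 2-fold higher in 5 of 7 classes. It had 118 and 281 CPM in PT (1.25), 93.9 and 352 in the loop of Henle and distal tubule (1.90), 107 and 354 in collecting duct (1.72), 221 and 540 in EC (1.28) and 67.4 and 207 in stroma (1.61). The pore-former Bax was higher in PT as well, with 94.1 and 200 CPM (1.09). Genes of opposite roles thus stood higher in the same cells. In myeloid cells the order differed, with the survival gene Bcl2a1b at 381 and 111 CPM in macrophages and monocytes (-1.78) and 1097 and 421 in neutrophils (-1.38), and with the pro-death gene Bcl2l11 at 53.5 and 162 in macrophages and monocytes (1.59). Bcl2a1b has near-identical copies, among which reads may be split. Bad was lower in 6 of 7 classes and Bid in 5 of 5, while Mcl1 was higher in 6 of 7 without passing 2-fold.

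Of the 11 apoptosome and executioner genes, the median was below that of all genes in 6 of 7 classes, PT being the exception. This count was 3 with at least 100 UMIs per gene and 2 when thinned to 1000 UMIs. Cycs, which encodes cytochrome c, was lower in 7 of 7 classes, between -0.83 and -0.54, and Endog, which encodes a mitochondrial nuclease, in 6 of 6, with 69.7 and 34.7 CPM in PT (-1.01). Both encode proteins that, like AIF, reside in mitochondria. Casp6 was higher in macrophages and monocytes (1.07), and Dffa, the inhibitor of the apoptotic DNase, was lower in PT (-1.38).

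Of the parthanatos list and the partners of MIF, Parp1, the target of the drug, was lower in 6 of 6 classes and past 2-fold in 3, with 38.5 and 10.3 CPM in macrophages and monocytes (-1.87). Parp2 was lower in 4 of 6 classes and past 2-fold in PT (-1.08) and EC (-1.35). It was above the control level in stroma (0.042) and among cells of loop of Henle and distal tubule (0.72). Rnf146, which encodes the ubiquitin ligase that binds PAR chains, was higher in 7 of 7 and past 2-fold in 6, with 20.9 and 82.4 CPM in macrophages and monocytes (1.96). Parg, which encodes the enzyme that degrades PAR, was above control in 6 of 7 without passing 2-fold. Chchd4, whose product imports proteins with AIF into mitochondria, was lower in 6 of 6, and Ddt, the paralog of Mif, in 6 of 7, with 346 and 253 CPM in PT (-0.45). Ackr3, a receptor of MIF, was at 51.0 and 5.07 CPM in PT (-3.31), and Cd74, its main receptor, at 3960 and 5402 in macrophages and monocytes (0.45). High Cd74 values elsewhere came from single cells: 440 of 440 stromal UMIs and 131 of 142 EC UMIs of the JPI-289 library lay in 1 cell each. The list median was below that of all genes in 4 of 7 classes, and in 2 with at least 100 UMIs per gene.

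**Figure D5:**
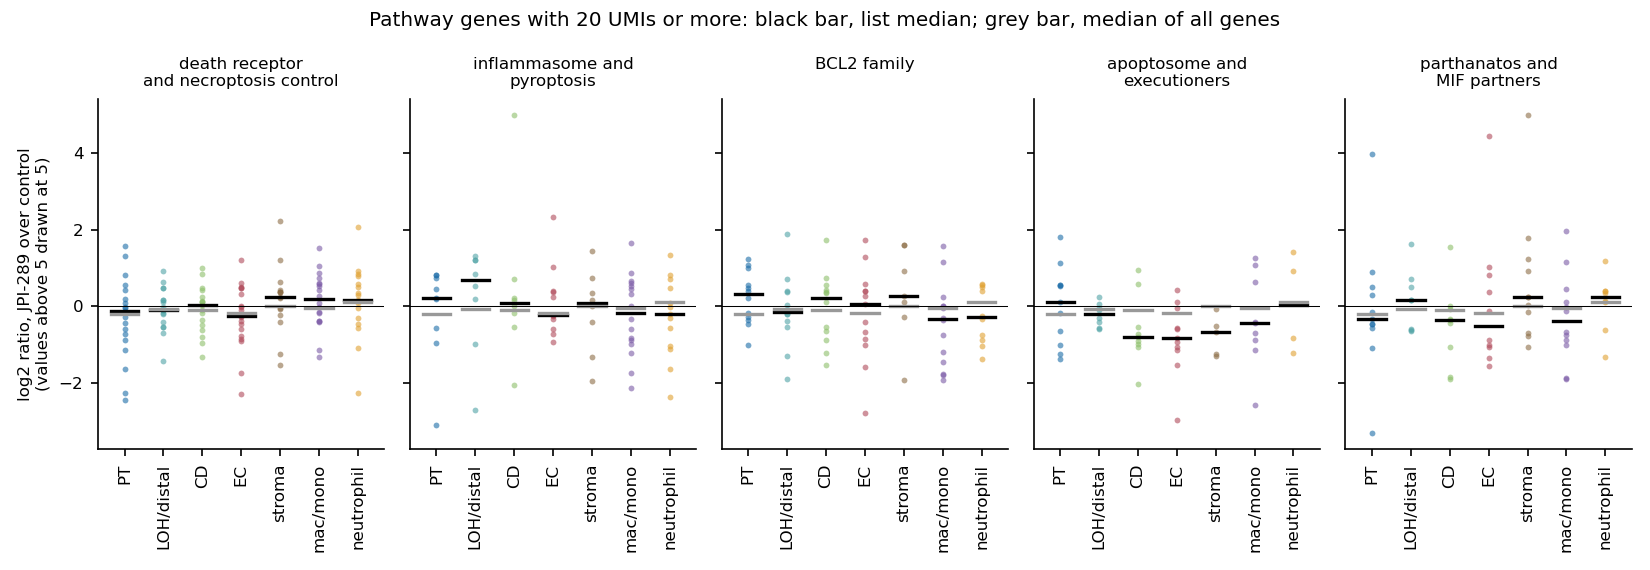
Log2 ratio of the JPI-289 over the control library (vertical axis, values above 5 drawn at 5) of each pathway gene with at least 20 UMIs in 7 cell classes (horizontal axis), 1 panel per list; black bars are list medians and grey bars the medians of all genes of the class. The apoptosome and executioner list lies below the grey bar in 6 of 7 classes (3 with at least 100 UMIs per gene, 2 when thinned), while the other lists lie on both sides of it.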

How the data were processed

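The authors deposited the UMI counts of every barcode, not normalized, for the 2 libraries. The submitters' processing notes name Cell Ranger 5.0.1 and mm10. No normalized values or cell annotation were used. Cells were called in 2 steps, first by total UMIs (over 1/10 of the 99th percentile of the top 3000 barcodes), then, at a minimum of 500 UMIs, by distance from the profile of barcodes ranked 45000 to 90000 (10000 simulations, false discovery rate 0.01), and those over 50% mitochondrial (537 and 391) were removed. Scrublet marked 0 and 2 cells, and none were left out. Counts were scaled to 10000 per cell, and 2000 variable genes, without the 9 genes and the pathway genes, gave 30 principal components, 20 neighbours and Leiden clusters at resolution 1 (scanpy 1.11.5, leidenalg 0.10.2). Clusters were named from marker lists, with at least 3 markers detected, and 179 and 395 cells were unnamed. Library totals of 38328760 and 35548396 UMIs set the precision.

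Levels are CPM, UMIs per 1000000 UMIs of a class, with Poisson intervals, and log2 ratios add 0.5 UMIs and have binomial intervals (scipy 1.17.1, numpy 2.4.6). Genes with at least 20 UMIs over both libraries were counted as measured. With 1 library per condition there was no test. Shares of cells have Clopper-Pearson intervals and were also computed after thinning to 1000 UMIs. A count of 0 was given a limit of 3 UMIs. The calling and interval steps were tested on simulated data. All 9 genes are given in every class. Of each pathway list in a class, named genes are up to 3 with most UMIs and up to 2 with the largest ratio in each direction, with at least 100 UMIs in PT or 50 elsewhere, and a gene named in 1 class may also be counted over all 7. Genes of like pattern are the 3 with the highest Pearson r on log2(CPM + 10). The members and lists were chosen with earlier results of these data known.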

Additional observations from a re-analysis of the deposited data

Results flagged for a closer look

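The log2 ratio of Mlkl (JPI-289 over control) was 2.21 in PT and -1.49 in EC, a difference of 3.69 on the log2 scale between 2 cell classes under the same comparison, with the JPI-289 library above the control in PT and below it in EC. The difference was not tested, since each condition was 1 library.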

How the results depend on the processing

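For the 40 gene and class pairs, 585 alternative values were computed. The settings of at least 100 and at least 5 UMIs per gene only choose which pairs are measured, so their 20 and 40 values could not move. Leaving out the scrublet doublets removed only 0 and 2 cells. Of the 585, 550 stayed inside the interval of the reported ratio, 35 moved beyond it, and 0 of the pairs past 2-fold changed sign. Signs did change under some settings among pairs short of 2-fold. These were Ripk1 in PT, loop of Henle and distal tubule, collecting duct, EC and stroma. Casp8 did so in loop of Henle and distal tubule, collecting duct and neutrophils. Ripk3 did so in macrophages and monocytes, and Mif there and in stroma. Of the 35, 16 came from thinning each cell to 1000 UMIs, which by construction leaves fewer cells and UMIs, 8 from giving each cell equal weight, 5 from the first step of cell calling alone, 2 from centring on the median of all genes, 2 from leaving out the cells with the highest 5% of doublet scores and 2 (Ripk1 and Mif) from leaving cluster 14 out of PT, both added after seeing the data. Gsdmd in EC (-1.54) was -0.70 when thinned. The Mlkl log2 ratio lay between 1.12 (thinned) and 2.40 (centred) in PT and between -1.84 and -1.12 in EC. Ranges were -2.06 to -1.45 for Gsdmd in macrophages and monocytes, -1.10 to -0.70 for Nlrp3 and -2.28 to -1.34 for Mif in neutrophils, and -1.10 to -0.48 for Aifm1 in PT. Ripk3 in macrophages and monocytes (0.25) was -0.95 when thinned, and Mif in stroma (0.12) was -0.48 with equal weight. The cause was not tested. Ripk1 in the loop of Henle and distal tubule (-0.25) was 2.65 when thinned. There a Ripk1 UMI was kept in 0 of 301 control and 4 of 432 JPI-289 cells, so the value rests on few counts.

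Pairs at least 2-fold lower numbered 10, and 3 with at least 100 UMIs per gene, where fewer pairs were measured. Pairs at least 2-fold higher numbered 1, and 2 with equal weight and 2 when thinned. The death receptor list was below all genes in 2 classes, in 1 with the first calling step alone, at least 1000 UMIs per cell, at most 20% mitochondrial UMIs or the highest doublet scores left out, in 4 with at least 100 UMIs per gene and in 0 with at least 5. The BCL2 family was below in 3 classes and in 1 when thinned, the apoptosome list in 6, in 3 with at least 100 UMIs per gene and in 2 when thinned, and the parthanatos list in 4 and in 2 with at least 100 UMIs per gene. No paired analysis was possible because each condition was 1 library. For the same reason no replicate could be left out.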

Other observations

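Barcodes removed for more than 50% mitochondrial UMIs, which are damaged or dying cells in many such data sets, held the mitochondrial death gene Aifm1 at 82.1 CPM of nuclear genes (55.0 to 118, 29 UMIs in 537 barcodes) in the control library and at 12.2 CPM (2.52 to 35.8, 3 UMIs in 391 barcodes) with JPI-289. The kept cells, on the same scale, had 43.1 and 22.9, and the kept PT cells 58.3 and 36.0. The control PT value lay inside the interval of the removed control barcodes, and the part of PT among the removed barcodes was not tested. Mif in the removed barcodes was at 691 (607 to 783) and 726 (623 to 841) CPM, and the other members had few UMIs in them. Ripk1 had 10 and 10 (28.3 and 40.8 CPM of nuclear genes), Casp8 14 and 6 (39.6 and 24.5), Nlrp3 8 and 3 (22.6 and 12.2), Mlkl 2 and 3, Gsdmd 1 and 0, and Ripk3 and Casp1 0 in both libraries.

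Podocytes, a class with too few control cells to compare, had 2 Ripk1 UMIs in 13 control cells and 12 in 51 JPI-289 cells, the latter a level of 157 CPM (80.9 to 273). Il1b in collecting duct had 0 UMIs in 126 control cells and 234 UMIs in 155 of 444 JPI-289 cells, or 153 CPM, with at most 5 UMIs in 1 cell. The 8 neutrophil markers in collecting duct summed to 18.5 and 501 CPM, while JPI-289 neutrophils had Il1b at 5972 and these markers at 124013 CPM. The part of neutrophil RNA in the collecting duct value was not tested, and Nlrp3 had 0 UMIs in collecting duct in both libraries.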
